A study of Rattus norvegicus with 6 samples.

Results

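The miR-17~92 cluster and its paralog miR-106b~25 are polycistrons, in which several hairpins are cut from a single transcript. Both are known for driving proliferation and survival, and both are induced by E2F and Myc. Their products fall into families defined by the seed, the bases near the 5′ end that pair with targets. The miR-17 seed family is known to repress the cell cycle inhibitor p21 and BMP pathway genes. The miR-25/92 family is known to repress p57 and the pro-apoptotic Bim. Because each cluster encodes members of both families, the cluster and the seed divide the same miRNAs in different ways.

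Small RNA was counted in extracellular vesicles from rat dedifferentiated fat (DFAT) cells, fibroblast-like multipotent cells obtained from mature adipocytes of Sprague-Dawley rats by ceiling culture. The 0 d vesicles (n = 3) came from DFAT cells labelled as having spent 0 d in osteogenic induction medium, and the 14 d vesicles (n = 3) from cells kept in it for 14 d. The study's design text says that vesicles were isolated by ultracentrifugation. No label says whether the samples of a group came from separate animals or cultures, so the spread behind each p-value may be technical. Of 417 different mature sequences in the count table, 5 were selected by name as members, and 4 of the 5 passed the filter on low counts. The selection did not use their values, although earlier results of these data were known when it was made.

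The members' sequences are shown because they are grouped below by seed as well as by cluster. Bases 2 to 8, the seed, are in capitals, and each sequence is the deposited mature sequence, identical to the RefSeq entry of that name.
rno-miR-17-5p: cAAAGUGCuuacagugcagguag
rno-miR-20a-5p: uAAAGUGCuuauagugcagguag
rno-miR-93-5p: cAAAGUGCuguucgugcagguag
rno-miR-25-3p: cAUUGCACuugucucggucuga
rno-miR-92a-3p: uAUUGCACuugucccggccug

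In the RefSeq table (build GRCr8, which is not the rn6 build named in the submitters' notes), miR-20a-5p lies at chr15:98588318-98588340 on the plus strand, in the miR-17~92 cluster, which lies inside no other gene of the table. miR-93-5p at chr12:22156894-22156916 and miR-25-3p at chr12:22156652-22156673 are neighbours on the minus strand, inside the gene of the replication factor Mcm7. A mature miR-17-5p can come from chr15:98587861-98587883 or from a hairpin at chrX:137343615-137343637, and miR-92a-3p from chr15:98588602-98588622 or chrX:137342945-137342965. The X-linked copies belong to another cluster, which begins with Mir106a, so counts of these 2 miRNAs cannot be assigned to a locus. With positions counted from the 5′ end and the first-named miRNA's base first, miR-17-5p and miR-20a-5p differ by C1U and C12U, and miR-92a-3p and miR-25-3p by U1C, C14U and C18U over 21 bases. The sources used here do not say how mismatched tags were counted, so the split of tags between such close relatives is uncertain.

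At 0 d the members' tags were nearly all of the miR-25 seed class, and at 14 d the classes were close to even or the miR-17 seed class led. The 3 miR-17 seed members held 6.70%, 9.08% and 5.44% of the tags of all 5 members in the 0 d libraries. In the 14 d libraries they held 48.8%, 80.2% and 59.2%. The groups did not overlap, and the exact (Clopper-Pearson) 95% intervals, which cover counting error only, reached no higher than 10.1% at 0 d and no lower than 43.8% at 14 d. As a ratio of miR-17 seed to miR-25 seed tags this was 0.0718, 0.0998 and 0.0575 at 0 d and 0.952, 4.04 and 1.45 at 14 d. The mean log2 ratio went from -3.74 ± 0.40 to 0.83 ± 1.07 (SD, n = 3 each), a difference of 4.57 ± 0.66 (SE), or 23.8-fold. This ratio is taken within each library, so it does not depend on scaling between libraries. A sum over chosen members is given without a p-value. By share of counts, the groups did not overlap for 69.7% of the 119 sequences that passed the filter, 26.1% higher and 43.7% lower at 14 d. A ratio of any of the higher to any of the lower would also not overlap, so such a separation is not particular to these seeds.

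**Figure D1:**
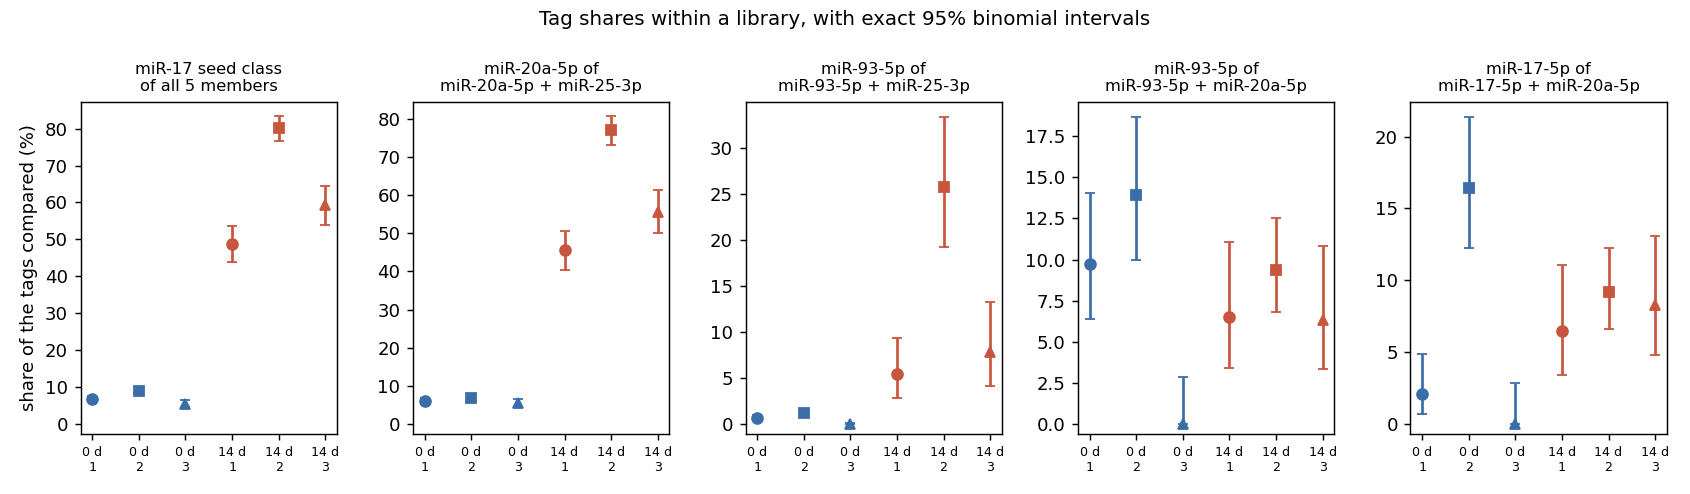
Share of tags (%, vertical axis) held by the first-named miRNA or class in each comparison, for the 3 libraries at 0 d (blue) and the 3 at 14 d (red), with exact 95% binomial intervals. The miR-17 seed class held 5.44% to 9.08% of the members' tags at 0 d and 48.8% to 80.2% at 14 d, while shares within the miR-17 seed class overlapped between the groups.

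Each class was dominated by a single miRNA. miR-20a-5p made up 88.5%, 73.6% and 100% of the miR-17 seed members' tags at 0 d and 87.8%, 83.0% and 86.3% at 14 d. miR-25-3p made up 99.5% to 99.8% of the miR-25 seed members' tags at 0 d and all of them at 14 d. The class ratio therefore followed these 2 miRNAs, which come from different clusters. The share of miR-20a-5p in the sum of the pair was 5.99%, 6.87% and 5.47% at 0 d and 45.5%, 77.0% and 55.7% at 14 d, a pair singled out after its values were seen.

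miR-25-3p, a product of miR-106b~25 that is also abundant in red blood cells, was the 9th most abundant of the 417 sequences at 0 d by mean share and the 27th at 14 d. It had 3643, 3105 and 2178 counts at 0 d and 207, 118 and 141 at 14 d. Its share of all counts was 2.39%, 1.89% and 1.80% at 0 d and 0.339%, 0.161% and 0.240% at 14 d. All 3 libraries at 14 d lay below all 3 at 0 d, as they did for 43.7% of the tested sequences by share. The mean share went from 2.03% ± 0.318 to 0.247% ± 0.0890 (SD, n = 3 each). The exact permutation p was 0.1, which is as small as 3 libraries against 3 can give. In edgeR's quasi-likelihood test, with trimmed mean of M-values (TMM) scaling and Benjamini-Hochberg adjustment over all 119 tested sequences, miR-25-3p fell by 2.21 ± 0.36 on the log2 scale (SE, n = 3 per group; adjusted p = 0.00289). Of the 119 sequences, 54.6% were called in either direction and 28.6% were called lower, and 30 had a lower log2 fold change than miR-25-3p, so a fall of this size was common in these vesicles. With total counts 18 sequences were called higher and 46 lower, against 31 and 34 with TMM. Under scaling to total counts the fall was by 3.05 (edgeR adjusted p = 0.000772).

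miR-20a-5p, a miRNA reported to promote osteoblast differentiation of human marrow stromal cells through PPARγ and BMP inhibitors, had 232, 229 and 126 counts at 0 d and 173, 396 and 177 at 14 d. Its raw counts thus overlapped between the groups. The 14 d libraries were smaller, with 58730 to 73236 total counts against 120766 to 164424. As a share of all counts, miR-20a-5p held 0.152%, 0.139% and 0.104% at 0 d and 0.283%, 0.541% and 0.301% at 14 d. Each 14 d share was above each 0 d share, as for 26.1% of the tested sequences (69.7% did not overlap in either direction). Mean shares of 0.132% ± 0.0248 before and 0.375% ± 0.144 after induction (SD, n = 3 libraries in each group) gave an exact permutation p of 0.1. miR-20a-5p rose by 2.60 ± 0.61 on the log2 scale (edgeR adjusted p = 0.0102, n = 3 per group), where 26.1% of tested sequences were called higher and 22 had a larger log2 fold change. The size depended on the scaling and on 14 d replicate 2, being 1.5 with total counts (edgeR adjusted p = 0.0184) and 1.72 without that library (edgeR adjusted p = 0.00534). Over all tested sequences the median log2 fold change was 0.26 with TMM and -0.54 with total counts, a median shift of -0.87.

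**Figure D2:**
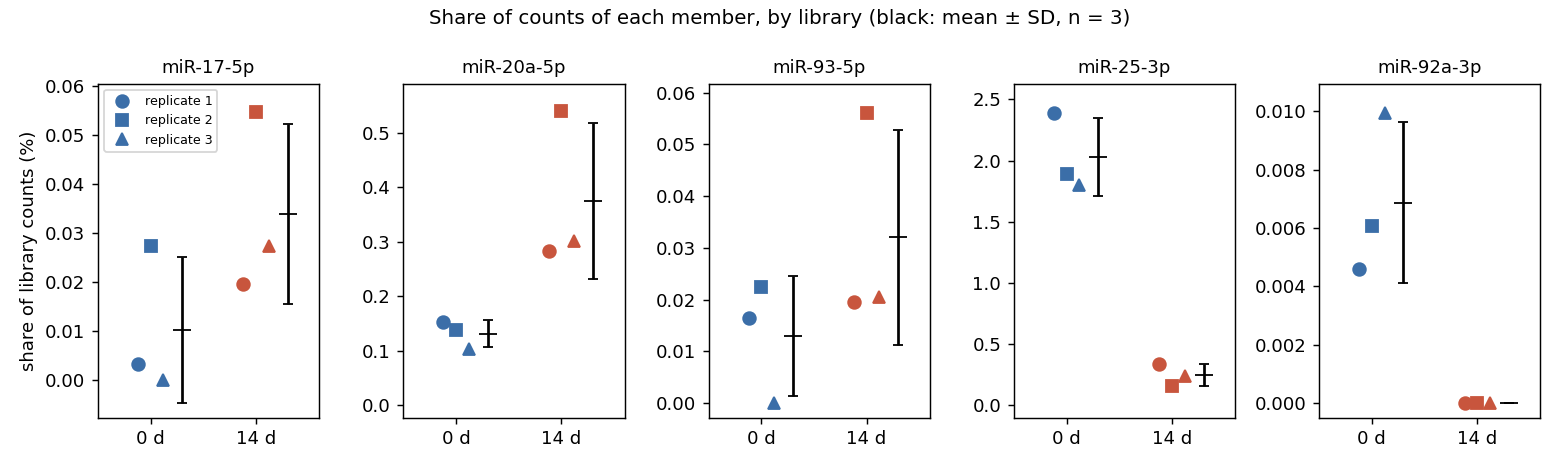
Share of library counts (%, vertical axes differ) of each member at 0 d (blue) and 14 d (red), with a symbol for each replicate and the mean ± SD in black (n = 3). miR-25-3p lay between 1.80% and 2.39% at 0 d and between 0.161% and 0.339% at 14 d, miR-20a-5p was higher in each 14 d library, and miR-17-5p and miR-93-5p overlapped.

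miR-17-5p and miR-93-5p share the seed of miR-20a-5p and were far less abundant. miR-17-5p, of the same cluster as miR-20a-5p, had 5, 45 and 0 counts at 0 d and 12, 40 and 16 at 14 d. As a share of counts this was 0.00328%, 0.0274% and 0 at 0 d and 0.0196%, 0.0546% and 0.0272% at 14 d. 0 d replicate 2 lay inside the range of the 14 d libraries, while the other 0 d libraries lay below it. The log2 fold change was 2.82 ± 1.43 (SE, n = 3 per group; edgeR adjusted p = 0.124), not past the threshold of 0.05. Without 0 d replicate 2 it was 5.0 (edgeR adjusted p = 0.0184), but this leaves 0 d counts of 5 and 0, so that call follows from the removal. miR-17-5p passed the low-count filter through the 14 d libraries, so its calls in single settings are no support for a rise. With all libraries kept it was also called with the replicate number as a block (3.68, edgeR adjusted p = 0.0308). A single random draw of thinned libraries gave a call too (4.36, edgeR adjusted p = 0.0244).

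miR-93-5p, the miR-17 seed member of miR-106b~25, had 25, 37 and 0 counts at 0 d and 12, 41 and 12 at 14 d. Its shares were 0.0164%, 0.0225% and 0 at 0 d and 0.0196%, 0.0560% and 0.0204% at 14 d. The groups overlapped, and the log2 fold change of 2.44 ± 1.34 did not pass the threshold (SE, n = 3 per group; edgeR adjusted p = 0.147; 1.18 without 14 d replicate 2). Both miRNAs passed the low-count filter through the 14 d libraries, since 1 of 3 libraries at 0 d for miR-17-5p and 2 of 3 for miR-93-5p reached the cutoff of 103 CPM (counts scaled to library size). Scaled with TMM factors, the levels of both did not overlap between the groups, as for 78.2% of the tested sequences. Both were blank in 0 d replicate 3. At their pooled ratio to miR-20a-5p in the other 0 d libraries, 13.7 counts of miR-17-5p and 16.9 of miR-93-5p would be expected there, against a smallest listed count of 2. For miR-17-5p that ratio was 0.0216 in 0 d replicate 1 and 0.197 in 0 d replicate 2, so its expected count is uncertain.

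**Figure D3:**
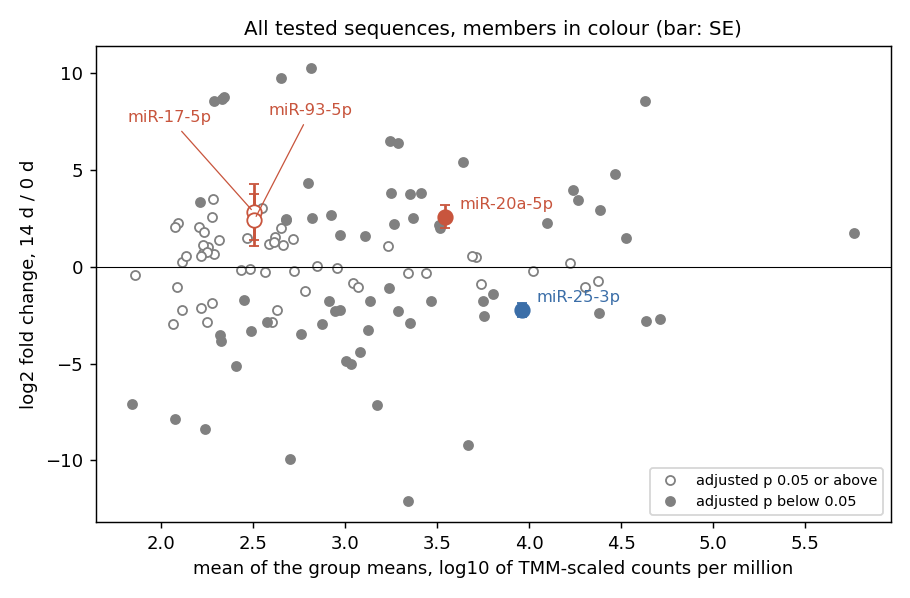
Log2 fold change of 14 d against 0 d (vertical axis) and mean abundance (log10 of TMM-scaled CPM, horizontal axis) of the 119 tested sequences in grey, with the miR-17 seed members in red and miR-25-3p in blue. Filled points had an edgeR adjusted p below 0.05, and bars on the members are the SE. miR-20a-5p at 2.60 and miR-25-3p at -2.21 were called, while miR-17-5p at 2.82 and miR-93-5p at 2.44 were not.

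miR-93-5p and miR-25-3p, the partners of miR-106b~25, are cut from neighbouring hairpins. miR-93-5p made up 0.682%, 1.18% and 0 of the pair's tags at 0 d and 5.48%, 25.8% and 7.84% at 14 d. The highest upper 95% limit at 0 d was 1.62% and the lowest lower limit at 14 d was 2.86%. With 0.5 counts added to each count, the mean log2 ratio was higher by 5.52 at 14 d (exact permutation p = 0.1, adjusted p = 0.2 over 6 ratios tested), and the groups did not overlap. The blank in 0 d replicate 3 makes this size depend on the added counts, and without that library the difference was 3.74. By share of counts miR-25-3p was lower at 14 d without overlap, as were 43.7% of the tested sequences. The shares of miR-93-5p overlapped and it was not called. Separation of this ratio is therefore not evidence of a change in miR-93-5p. The smallest p this design allows is 0.1, so no ratio could pass the threshold. The 6 ratios include those to miR-92a-3p, which rest on the added counts and made the adjusted p of 0.2 smaller.

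Within the miR-17 seed class no change in proportions was detectable. miR-17-5p made up 2.11%, 16.4% and 0 of its sum with miR-20a-5p at 0 d and 6.49%, 9.17% and 8.29% at 14 d. The 0 d libraries differed from each other by more than counting error, with 95% intervals of 0.688% to 4.85% in replicate 1 and 12.2% to 21.4% in replicate 2, whereas the intervals of the 14 d libraries overlapped. The log2 ratio differed by 1.74 ± 1.64 (SE, n = 3 each; exact permutation p = 0.4, adjusted p = 0.6), and by 0.36 without 0 d replicate 3. miR-93-5p made up 9.73%, 13.9% and 0 of its sum with miR-20a-5p at 0 d and 6.49%, 9.38% and 6.35% at 14 d. The difference in log2 ratio was 0.97 ± 1.71 (SE, n = 3 each; exact permutation p = 1.0, adjusted p = 1.0), and -0.73 without 0 d replicate 3. These errors do not show that the proportions stayed the same.

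miR-92a-3p, encoded by the last hairpin of miR-17~92 and known for restraining blood vessel growth, was near the limit of detection. It had 7, 10 and 12 counts at 0 d and was blank in each 14 d library, where a blank can hide a count of 1. It was not tested, since no library reached the cutoff on low counts. At 0 d there were 0.325 tags of miR-92a-3p per 100 tags of miR-25-3p. At that ratio 1.51 counts would be expected over all 14 d libraries, and at its 0 d share of all counts 12.8. A fall of miR-92a-3p relative to miR-25-3p was therefore not detectable at this depth, and no fold change is given. As a share of all counts, miR-92a-3p held 0.0046% to 0.0099% at 0 d and 0 in each 14 d library, so the groups did not overlap. Of the tested sequences, 43.7% were lower at 14 d without overlap by share. The log2 ratio of miR-25-3p to miR-92a-3p differed by 0.05, with a sign that turned with the counts added, so no p-value is given for it either. At 0 d there were 10.5 to 33.1 tags of miR-20a-5p and 0 to 4.5 of miR-17-5p per tag of miR-92a-3p. At 14 d there was no miR-92a-3p tag to divide by, so these ratios rest on the added counts and no p-value is given for them.

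Other products of these loci were scarce. RefSeq gives 25 different mature sequences for the 3 clusters, of which 8 were listed in the table, namely the 5 members and 3 others. miR-106b-5p, which also carries the miR-17 seed, had 25, 8 and 0 counts at 0 d and 4, 0 and 7 at 14 d. miR-106b-3p, from the opposite arm of the same hairpin, had 31, 0 and 0 counts at 0 d and 4, 5 and 0 at 14 d. miR-19b-3p, another product of miR-17~92, had 2 counts in 14 d replicate 1 and none elsewhere. The other 17, among them miR-18a-5p and miR-19a-3p, were not listed. Outside the clusters, miR-92b-3p carries the miR-25 seed and had 8, 9 and 0 counts at 0 d and none at 14 d. Of all 417 sequences, 4 carry the miR-17 seed (AAAGUGC at bases 2 to 8) and 3 the miR-25 seed (AUUGCAC), or 0.959% and 0.719% of them. Summing over all of these in place of the members gave a class difference of 4.54 in place of 4.57.

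The sequences nearest to each tested member, by the root mean square difference of mean-centred log2 CPM over the 6 libraries, were taken from 103 other annotated sequences. For miR-25-3p these were miR-493-5p at 0.31 and miR-99b-5p at 0.33, against a median of 1.52. For miR-20a-5p they were miR-3559-3p at 0.20 and miR-152-3p at 0.31 (median 1.49). For miR-93-5p they were miR-23a-3p at 0.60 and miR-30d-5p at 0.62, and for miR-17-5p they were let-7a-1-3p at 0.49 and miR-93-5p at 0.72. Profiles over 6 libraries share the difference between the groups and the scaling, so this is a description.

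Among marker miRNAs of cell types, some were called higher at 14 d and others lower, as among all tested sequences. All 10 mesenchymal miRNAs of a marker list were listed, at 32.2% to 45.5% of counts at 0 d and 65.0% to 72.3% at 14 d, most of it miR-21-5p, which held 36.7% ± 6.65 and 63.6% ± 4.62 (SD, n = 3 each). Of these 10, 5 were called higher and 1, miR-125b-5p, lower, against 26.1% and 28.6% of all tested sequences. All 7 miRNAs of the red cell and serum list were listed, at 3.41% to 11.4% of counts at 0 d and 0.723% to 0.894% at 14 d. Most of this sum was the liver-derived serum miRNA miR-122-5p, with 4695, 4551 and 12911 counts at 0 d and 250, 415 and 349 at 14 d. Of the list's 5 tested members 3 were called lower and 1 higher, where 54.6% of all tested sequences were called in either direction. Of its red cell members, miR-451-5p had 7 counts in a single 0 d library and miR-144-3p 2 counts in a single 14 d library. miR-486 had 624, 223 and 357 counts at 0 d and 3, 2 and 4 at 14 d. miR-144-5p had 93, 56 and 75 counts at 0 d and 0, 0 and 5 at 14 d. The member called higher was miR-16-5p (log2 fold change 2.50, edgeR adjusted p = 0.0259), and miR-423-5p was not called (-0.30). Of 5 leukocyte miRNAs, 3 were listed, and none passed the filter to be tested. They held 0.0197%, 0.0189% and 0 of counts at 0 d and 0 in each 14 d library, so the groups overlapped. miR-142-3p and miR-223-3p were not listed. The platelet and endothelial miRNAs miR-126a-3p and miR-126a-5p held 0.138% to 0.220% at 0 d and 0.0205% to 0.0409% at 14 d. Any part of these cell types in the fall of miR-25-3p was not tested. In these data fewer vesicles carrying a miRNA and fewer copies per vesicle cannot be told apart.

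**Figure D4:**
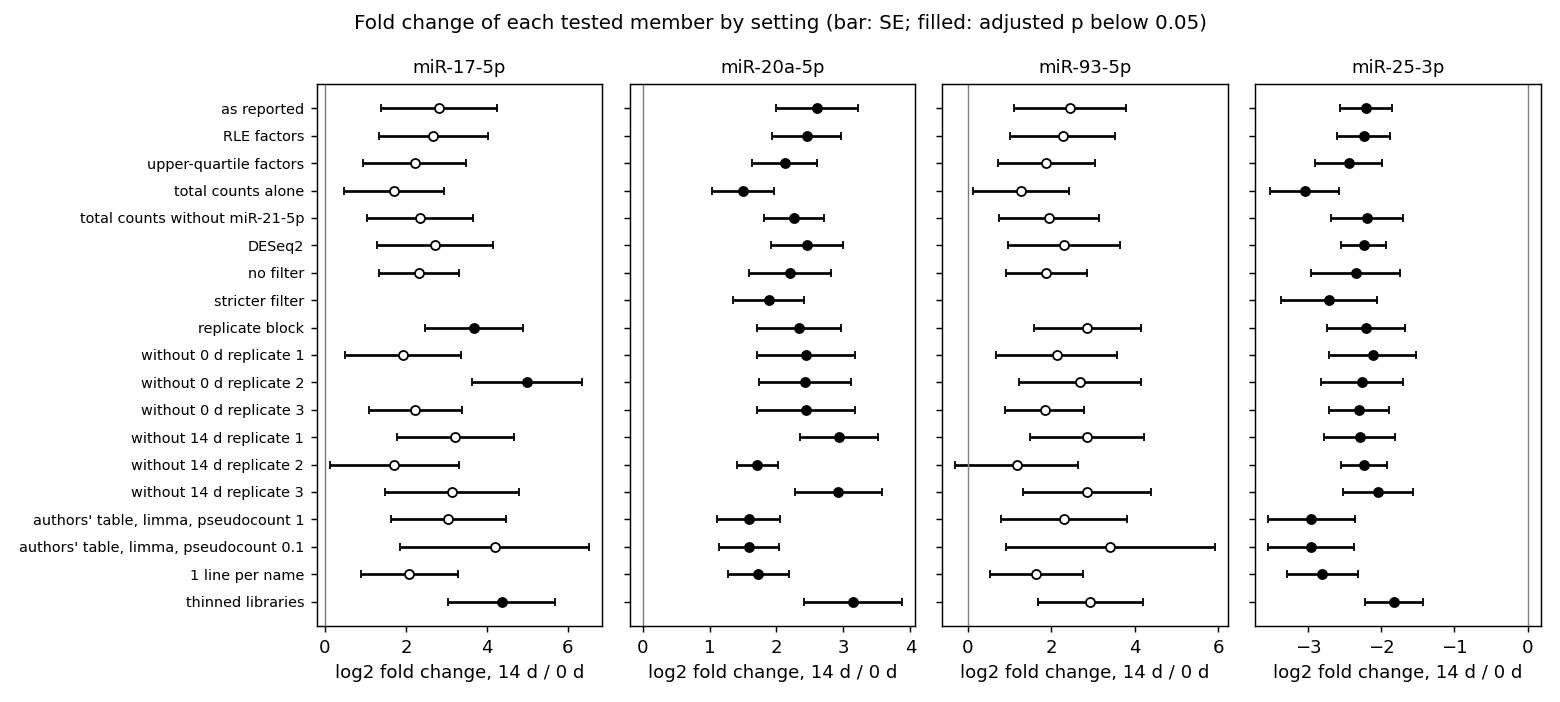
Log2 fold change of 14 d against 0 d (horizontal axis) of each tested member under each processing setting, with SE bars, filled where the adjusted p was below 0.05. miR-20a-5p ranged from 1.5 to 3.14 and miR-25-3p from -3.05 to -1.83, both called in each setting, while miR-17-5p and miR-93-5p had wide errors and did not pass the stricter low-count filter.

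Across the 18 alternative settings in the plot of fold changes by setting, miR-20a-5p was called higher in each (1.5 to 3.14; adjusted p of 1.6e-05 to 0.0356 with edgeR, DESeq2 or limma). miR-25-3p was called lower in each (-3.05 to -1.83; adjusted p of 2.5e-12 to 0.0233 with the same tools). miR-93-5p was called in none of the 17 that tested it (1.18 to 3.42; adjusted p of 0.0731 to 0.553).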

How the data were processed

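Per the file headers, the authors deposited raw tag counts per mature miRNA, and a normalized tag count treated here as a score, for 6 libraries. Per the submitters' processing notes, cutadapt 1.9.3, Novoalign 3.02.12 and rn6 were used, in roles not given. The 483 lines were reduced to 417, 1 for each mature sequence, and a blank was taken as 0.

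edgeR 4.0.16 in R 4.3.3 (quasi-likelihood F test, 2-sided, TMM, default filter with minimum count 10 and minimum total 15, group as the only term) was fitted on the whole table, with adjustment over 119 sequences and a threshold of 0.05. It was also run on simulated counts with the same dispersion for all sequences and balanced rises and falls. No simulated library was shifted from its group, so that run does not bear on the low TMM factor of 14 d replicate 2. The SE is the log2 fold change divided by the square root of F. Ratios within a library used 0.5 added counts and exact 2-sided permutation tests (scipy 1.17.1). Alternatives were other scalings, DESeq2 1.42.0, limma 3.58.1 on log2 of the authors' table (pseudocount 1 or 0.1), other filters, libraries thinned to 58730 counts, 1 line per name, a replicate block and leaving out each library. Named sequences are the members, listed products of the 3 clusters, sequences sharing a member's seed, the 2 nearest profiles and fixed markers. Members and lists were chosen with earlier results of these data known.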

Additional observations from a re-analysis of the deposited data

How the results depend on the processing

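The calls of miR-20a-5p and miR-25-3p held in all 18 alternatives. miR-17-5p, which passed the low-count filter through the 14 d libraries, was called higher in the single random draw of thinned libraries (4.36, edgeR adjusted p = 0.0244). It was also called with the replicate number as a block (3.68, edgeR adjusted p = 0.0308), and leaving out a library gave 1.71 to 5.0. Whether shared replicate numbers pair the libraries is not known. Over 119 sequences, deviations from the group means correlated at -0.02, 0.04 and 0.17 for same-numbered libraries. For differently numbered libraries the correlations were -0.14 to 0.05. With 3 libraries per group these values cannot settle the pairing. The block changed no other member's call. The 31 higher and 34 lower calls over all sequences became 18 higher and 46 lower with total counts, 18 higher and 35 lower with the authors' table and a pseudocount of 0.1 (21 and 40 with a pseudocount of 1), and 19 higher and 18 lower with the stricter filter. The log2 ratio of miR-25-3p to miR-92a-3p turned from 0.05 to -0.87 with 1 added count, and ranged from -0.32 to 0.42 without single libraries. That of miR-93-5p to miR-20a-5p ranged from -0.73 to 1.96 without single libraries. Without miR-21-5p in the total, the share of the miR-17 seed class differed by 0.940 percentage points in place of 0.286, and that of the miR-25 seed class by -2.54 in place of -1.79. The seed class ratio differed by 3.98 to 5.02 without single libraries. The cause of these shifts was not tested. Counts of miR-92a-3p, miR-17-5p and miR-93-5p were below 50 in each library.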

Other observations

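The TMM factor of 14 d replicate 2 was 0.47, against 0.92 in each other 14 d library and 1.35 to 1.39 at 0 d. With it, the scaled level of miR-21-5p in that library was 1276650 CPM, more than all CPM of a library sum to before scaling, and miR-20a-5p was at 11564 against 3089 and 3291 in the other 14 d libraries.

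miR-106b-5p and miR-106b-3p, the arms of a single hairpin, had 25 and 31 counts in 0 d replicate 1, so that the 5p arm made up 44.6% of them (exact 95% interval 31.3% to 58.5%). In 0 d replicate 2 the 5p arm had 8 counts and the 3p arm none, for an interval of 63.1% to 100%. In 14 d replicates 1, 2 and 3 the 5p arm made up 50%, 0 and 100% of 8, 5 and 7 counts. Their intervals were 15.7% to 84.3%, 0 to 52.2% and 59.0% to 100%, so the arm balance was erratic at these low counts. No opposite arm was listed for any of the 5 members.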
